A study of Homo sapiens with 30 samples.

Results

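Kinesins are motor proteins that burn ATP to move along or remodel microtubules, and the 42 kinesin genes measured on these arrays are described here. A gene was taken as a kinesin gene where a probe set carried a single platform symbol made of KIF, a number and an optional letter, or was KIFC1, KIFC2 or KIFC3, with antisense and pseudogene symbols left out. This gave 46 probe sets for 42 of the 22465 named genes, and the probe set with the highest mean over all 30 arrays stood for each gene. KIF7 had 2 probe sets and KIFC1 had 4. By textbook role, 15 genes were placed among the mitotic kinesins, 15 among the transport kinesins and 12 among other kinesins. CENPE, a kinesin whose symbol does not follow the pattern, was not a member.

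The arrays came from 5 established human cell lines. HCT-116, HT-29 and KM12C are colorectal cancer lines, NK-92 is a natural killer cell line and TALL-104 is a CD8+ T cell line. Each line was grown with 1 µM elraglusib (9-ING-41), a small-molecule inhibitor of the kinase GSK-3, or with the vehicle DMSO for 24 h, with 3 arrays per line and treatment. That dose is the one in the labels and in the study's figure captions for these arrays, while the study's running text describes the cells as treated at inhibitory concentrations. If the dose differed by line, line and dose cannot be told apart wherever responses of lines are compared. Both media of the cytotoxic lines held interleukin-2, which the colorectal lines did not receive, and the colorectal cells were attached before treatment. HCT-116 and HT-29 shared a medium, while KM12C, NK-92 and TALL-104 each had a medium of their own.

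In dividing cells, mitotic kinesins push the spindle poles apart, move and align chromosomes, shorten microtubule ends and build the central spindle on which the cell divides. Their genes belong to a group switched on late in the cell cycle, held down in resting cells by the DREAM complex and driven in dividing cells by B-MYB and FOXM1. Transport kinesins carry vesicles, endosomes, mitochondria and ciliary cargo, and most are needed whether or not a cell divides. GSK-3 phosphorylates many proteins, beta-catenin, MYC and microtubule-binding proteins among them.

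Values are log2 gene-level signals on the Human Transcriptome Array 2.0. A level belongs to its own probe set and is not compared with that of another gene, and a difference of 1 is a doubling of signal. A mean signal under 6 in all 10 groups was taken as a low level. Of the mitotic kinesins, 2 of 15 were low in every group, namely KIF2B and KIF4B, against 4 of 15 transport kinesins (KIF1A, KIF17, KIFC2 and KIFC3) and 8 of 12 other kinesins, while 49% of all named genes were low. KIF4B is an intronless copy of KIF4A, so its signal may hold cross-hybridised KIF4A and is uncertain.

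The colorectal arrays had EPCAM between 13.98 and 15.27, with CDX2 low in all 3 lines, KRT20 low in HCT-116 and KM12C, and VIL1 low in HCT-116. In NK-92 all 8 natural killer markers had a mean above 6, and in TALL-104 6 of 8 T cell markers and 7 of 8 natural killer markers did, although CD8B had a mean of 3.92 there. The array labelled TALL-104 DMSO replicate 2 went against its label. Its CD3D signal was 3.70, against 13.96 to 14.41 on the other 5 TALL-104 arrays and 3.54 to 3.98 on the NK-92 arrays, and its NCAM1 signal was 12.34, against 8.17 to 9.12 on the other TALL-104 arrays. Over 17407 probe sets it correlated at 0.9884 to 0.9929 with NK-92 arrays and at 0.8593 to 0.8712 with the other TALL-104 arrays, a description over probe sets with no test.

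The kinesin genes of that array followed the same pattern. Its gap to the NK-92 DMSO mean had a median size of 0.19 over the 15 mitotic kinesins, against 1.76 to the mean of the other TALL-104 DMSO arrays, and all 15 lay nearer to NK-92. KIF14, for example, had 11.68 on that array, 8.93 as the mean of TALL-104 DMSO replicates 1 and 3, and 10.82 to 11.11 in NK-92 with DMSO. Over all 42 kinesin genes 36 lay nearer to NK-92. The treatment, response, class and NK-92 against TALL-104 counts are therefore given with and without this array, and the single line levels of TALL-104 without it.

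**Figure D1:**
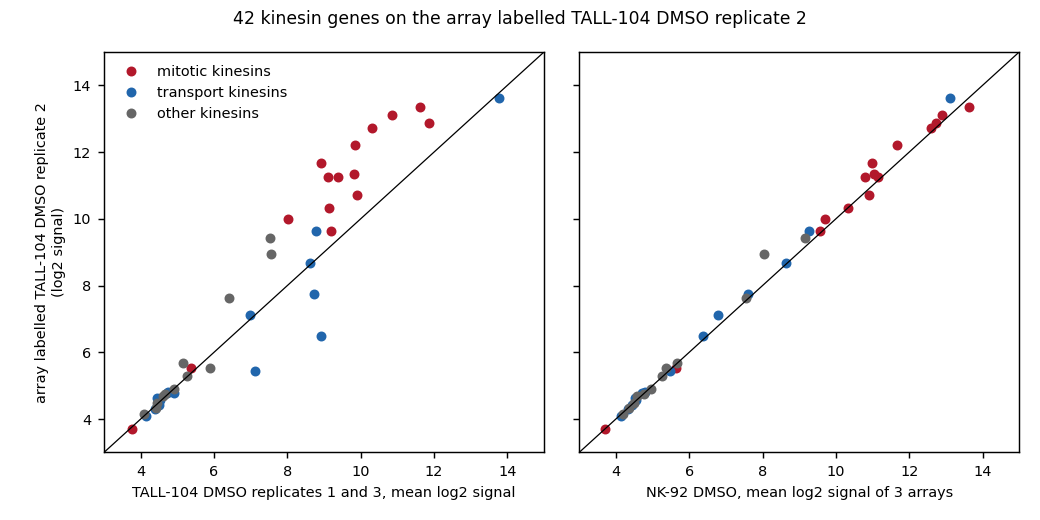
Log2 signal of the 42 kinesin genes on the array labelled TALL-104 DMSO replicate 2 (vertical axis) against the mean of TALL-104 DMSO replicates 1 and 3 (left) and the NK-92 DMSO mean of 3 arrays (right), with the line of equality. The points hug the line on the right, where the largest gap is 0.93, and lie up to 2.75 from it on the left.

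In HCT-116, KIF14, KIF11, KIF15 and KIF18A fell with elraglusib, and no kinesin gene rose. These 4 are all mitotic kinesins, 4 of the 15, while none of the transport or other kinesins passed the test. In the same fit 0.677% of the named genes were called lower and 1.09% higher, called meaning a Benjamini-Hochberg adjusted p under 0.05 from limma over all 67528 probe sets. The mitotic kinesins had a median difference of -0.44 on the log2 scale, against 0.02 over all named genes. The RNA came from whole cultures, so fewer cells in mitosis and less RNA per cell cannot be told apart.

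KIF14 works with PRC1 and citron kinase when daughter cells separate. Its signal was 10.27, 9.75 and 10.01 on the elraglusib arrays of HCT-116, against 11.04, 11.16 and 11.04 on the DMSO arrays. Every elraglusib array lay below every DMSO array, and the difference was -1.07 (SE 0.14, adjusted p = 0.0221), or 0.476 times the DMSO signal. KIF11 (Eg5), which pushes the spindle poles apart and is the target of monastrol-type drugs, had 11.97, 11.64 and 11.78 with elraglusib, against 12.53, 12.76 and 12.76 with DMSO. The groups did not overlap, with a difference of -0.89 (SE 0.12, adjusted p = 0.0250).

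KIF15, which keeps the spindle bipolar beside KIF11, had 8.79, 8.41 and 8.63 with elraglusib in HCT-116, against 9.37, 9.50 and 9.38 with DMSO. Here too the groups were apart, by -0.81 (SE 0.12, adjusted p = 0.0305). KIF18A damps the movements of chromosomes at metaphase by acting on microtubule plus ends. It had 12.03, 11.73 and 11.72 with elraglusib, against 12.51, 12.66 and 12.56 with DMSO, a fall of 0.75 on the log2 scale (SE 0.12, adjusted p = 0.0340).

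Of the 15 mitotic kinesins, 13 had all 3 elraglusib arrays of HCT-116 below all 3 DMSO arrays, which 10.5% of the named genes had, against 3 of 15 transport kinesins and 2 of 12 others. Those just outside the threshold were KIFC1, a minus-end motor that clusters spindle poles, at -0.61 (adjusted p = 0.0594), KIF21A, which restrains microtubule growth, at -0.54 (adjusted p = 0.0615), KIF20B at -0.78 (adjusted p = 0.0648), KIF2C at -0.51 (adjusted p = 0.0660) and KIF18B at -0.44 (adjusted p = 0.0688). Among transport kinesins the smallest p belonged to KIF13B, at -0.36 with an adjusted p of 0.124. The count of called kinesin genes was 14 after quantile normalization, all of them lower, where 2.24% of the named genes were called lower, and 0 or 1 when any single HCT-116 array was left out. The call left was KIF14, without elraglusib replicate 1.

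In HT-29, 6 of the 15 mitotic kinesins moved the other way. KIF20A, KIF18A, KIF23, KIF14, KIF4A and KIF18B rose with elraglusib, and 3 transport kinesins, KIF13B, KIF13A and KIF3C, fell. These 6 compare with 4.06% of the named genes called higher, and the 3 called transport kinesins of 15 with 5.79% called lower. None of the 12 other kinesins was called. The mitotic kinesins had a median difference of 0.17, against -0.02 over all named genes, and the transport kinesins a median of 0.00.

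KIF20A (MKLP2) brings the Aurora B complex to the central spindle. Its signal was 12.95, 13.10 and 12.77 with elraglusib in HT-29, against 11.94, 12.04 and 11.74 with DMSO, so that the groups did not overlap. The rise was 1.03 (SE 0.14, adjusted p = 0.00197), or 2.05 times the DMSO signal. KIF23 (MKLP1), the motor of the centralspindlin complex at the midbody, had 14.35, 14.41 and 14.54 with elraglusib, against 13.47, 13.71 and 13.48 with DMSO. It rose by 0.88 (SE 0.12, adjusted p = 0.00259), with the lowest elraglusib array above the highest DMSO array.

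KIF14 had 11.42, 11.74 and 11.97 with elraglusib in HT-29, against 10.27, 10.83 and 10.57 with DMSO. It showed the largest rise among the kinesin genes, 1.15 (SE 0.19, adjusted p = 0.00562), or 2.22 times the DMSO signal. KIF18A had 12.31, 12.38 and 12.50 with elraglusib, against 11.24, 11.60 and 11.42 with DMSO. Its rise was 0.98 (SE 0.13, adjusted p = 0.00215), again with no overlap.

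KIF4A, a chromokinesin that sets the length of the central spindle with PRC1, had 12.43, 12.62 and 12.52 with elraglusib in HT-29, against 11.88, 11.96 and 11.79 with DMSO. The rise was 0.65 (SE 0.11, adjusted p = 0.00892). KIF18B, which restrains the growth of astral microtubules, had 9.60, 9.78 and 9.38 with elraglusib, against 8.91, 9.05 and 8.45 with DMSO, a rise of 0.78 (SE 0.18, adjusted p = 0.0299). Its groups did not overlap.

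The transport kinesins that fell in HT-29 include both members of a pair of vesicle motors. KIF13B, which carries cargo bound by the scaffold DLG1, had 8.43, 8.54 and 8.27 with elraglusib, against 9.25, 9.17 and 9.20 with DMSO. The difference was -0.79 (SE 0.12, adjusted p = 0.00352). KIF13A, a motor of recycling endosomes, had 7.36, 7.54 and 7.46 with elraglusib, against 8.11, 8.40 and 8.02 with DMSO, a difference of -0.72 (SE 0.13, adjusted p = 0.0112). In both genes every elraglusib array was below every DMSO array.

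KIF3C, a kinesin-2 motor, had 5.54, 5.58 and 5.54 with elraglusib in HT-29, against 6.04, 6.15 and 6.00 with DMSO. The fall of 0.51 (SE 0.11, adjusted p = 0.0207) was between signals at or near the low level. Several kinesins did not follow the called ones: KIF1C had a difference of 0.53 (adjusted p = 0.104) and KIF20B one of 0.51 (adjusted p = 0.230), neither past the threshold. The count of 9 was 7 or 8 when a single HT-29 array was left out. KIF3C stayed called in 1 of these 6 fits and KIF18B in 2, while the other called genes stayed in all 6.

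**Figure D2:**
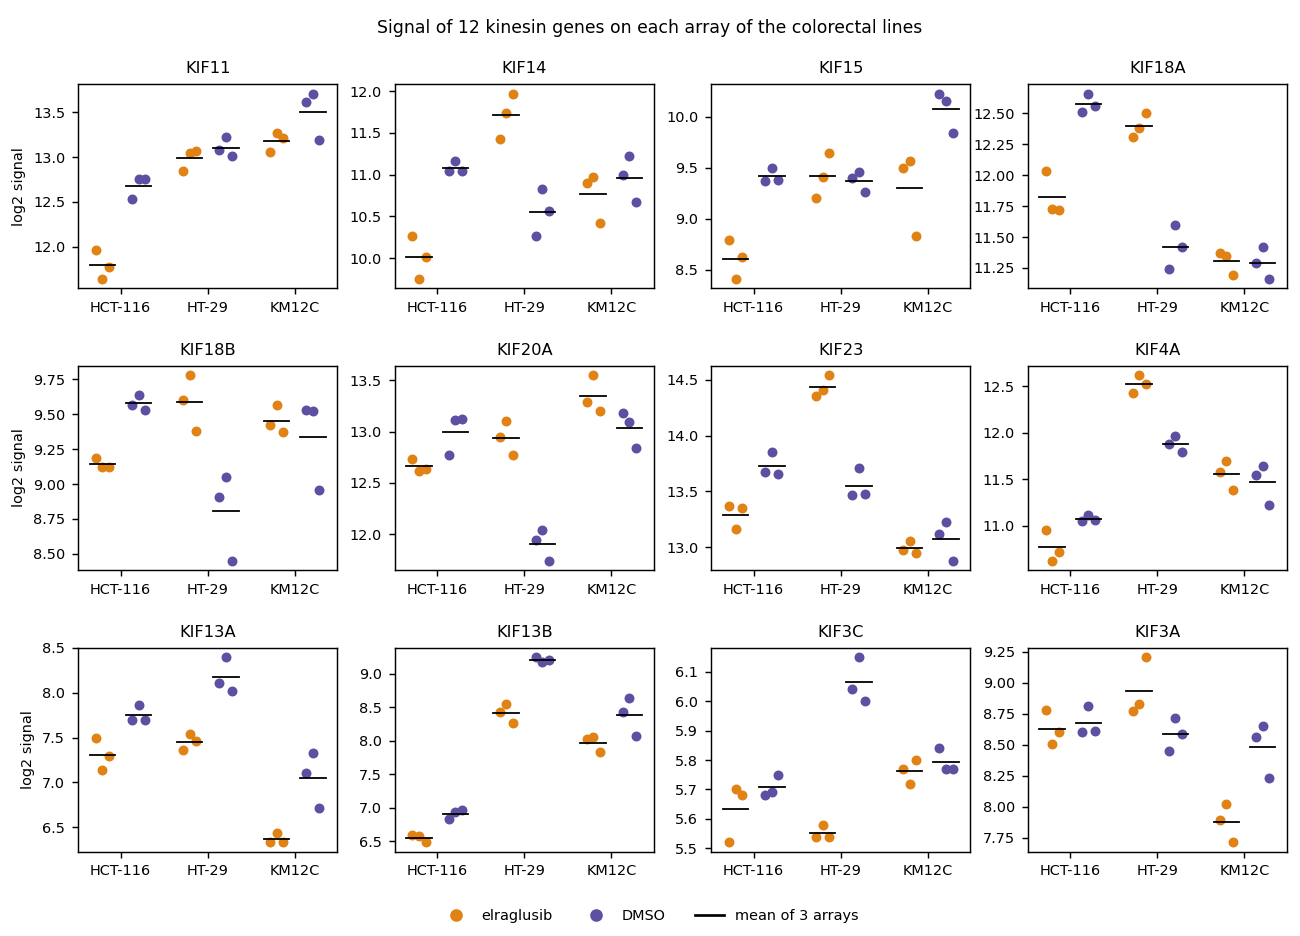
Log2 signal of 12 kinesin genes on each array of the 3 colorectal lines, elraglusib (orange, left) beside DMSO (purple, right), the bar marking the mean of 3 arrays. KIF14 and KIF18A are lower with elraglusib in HCT-116 and higher in HT-29, while KIF13A is lower in HT-29 with 7.36, 7.54 and 7.46 against 8.11, 8.40 and 8.02 with DMSO.

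In KM12C no kinesin gene passed the test with limma, where 1.89% of the named genes did. At an unadjusted p under 0.05 there were 10 kinesin genes, 3 mitotic, 5 transport and 2 others, in a fit where 17.5% of all probe sets reached it. The 4 with the smallest p were all lower with elraglusib. KIF13A had 6.33, 6.44 and 6.34 with elraglusib, against 7.10, 7.33 and 6.71 with DMSO, a difference of -0.68 (SE 0.16, adjusted p = 0.0871).

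KIF3A, a subunit of the kinesin-2 motor that builds cilia, had 7.89, 8.02 and 7.71 with elraglusib in KM12C, against 8.56, 8.65 and 8.23 with DMSO. Its difference was -0.61 (SE 0.15, adjusted p = 0.0903), with no overlap between the groups. KIF16B, which moves early endosomes, had 7.52, 7.65 and 7.32 with elraglusib, against 8.42, 8.49 and 7.82 with DMSO, a difference of -0.75 (SE 0.19, adjusted p = 0.100). KIF2A, a microtubule depolymerase of the spindle poles, had 10.98, 11.09 and 10.99 with elraglusib, against 11.53, 11.59 and 11.31 with DMSO, a difference of -0.46 (SE 0.12, adjusted p = 0.109). In each of these genes DMSO replicate 3 was the lowest of the DMSO arrays.

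Over 17407 probe sets, KM12C DMSO replicate 3 correlated at 0.9863 to 0.9879 with the other DMSO arrays of its line, which correlated at 0.9956 with each other. Without it 9 kinesin genes were called, all lower with elraglusib, in a fit that called 10.8% of all probe sets. They were the mitotic KIF11 and KIF2A, the transport kinesins KIF13A, KIF16B, KIF3A, KIF1B and KIF13B, and KIF27 and KIF24. KIF16B had the largest difference without that array, -0.96 (adjusted p = 0.015), and KIF13A had -0.85 (adjusted p = 0.015). The part of this array in the KM12C result was not tested beyond these values.

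NK-92 showed no called kinesin gene, and the fit called 0 of the named genes. At an unadjusted p under 0.05 there was 1 kinesin gene, KIF21B, beside 4.34% of all probe sets. KIF21B restrains microtubule growth and acts at the immune synapse of T cells. Its signal was 8.44, 8.74 and 8.76 with elraglusib, against 7.83, 8.14 and 8.11 with DMSO, a difference of 0.62 (SE 0.14, limma adjusted p = 0.80).

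KIF4B, KIF20B and KIF4A came next in NK-92, with differences of -0.26, 0.27 and 0.20 and limma adjusted p-values of 1.00 each. The mitotic kinesins had a median difference of 0.05 in NK-92. Their single differences ran from -0.26 to 0.33, against -1.07 to 0.04 in HCT-116 and -0.16 to 1.15 in HT-29. These spans are descriptions, and no test of NK-92 against a colorectal line was made.

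TALL-104 showed no called kinesin gene either, with all 6 arrays or without DMSO replicate 2, and the fit called 0 of the named genes in both cases. By the brightest probe set of each gene, no kinesin gene had an unadjusted p under 0.05, which 4.86% of all probe sets had with 6 arrays and 5.12% with 5. The mitotic kinesins had a median difference of -0.70 with all 6 arrays and of -0.18 without DMSO replicate 2. KIF4A, for example, had a difference of -1.19 with 6 arrays and of -0.47 (SE 0.27) with 5, and KIF11 had -0.61 with 6 and -0.28 (SE 0.18) with 5. KIF20B had -0.94 and -0.43, and KIF3B, the partner of KIF3A, -0.55 and -0.27, with limma adjusted p-values of 0.823 to 0.926 for these 4 genes. In 5 of the 15 mitotic kinesins all elraglusib arrays lay below all DMSO arrays in both fits, which 5.23% of the named genes did with 6 arrays and 9.72% with 5.

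KIF7, a ciliary kinesin that regulates hedgehog signalling, was low on all arrays by its brighter probe set. Its difference was -0.00 in HCT-116, -0.01 in HT-29, 0.13 in KM12C, 0.02 in NK-92 and 0.05 in TALL-104 (0.06 without DMSO replicate 2), and none was called. The dimmer probe set of KIF7 gave -0.33 in HCT-116 (adjusted p = 0.207), -0.23 in HT-29, -0.05 in KM12C and 0.05 in NK-92. In TALL-104 it gave 0.52 (SE 0.18, adjusted p = 0.823), or 0.58 (SE 0.19, adjusted p = 0.918) without DMSO replicate 2. Its unadjusted limma p was under 0.05 in TALL-104 (0.02346 with all arrays, 0.02295 without that replicate) and in HCT-116 (0.0127). The 2 probe sets thus differed in size in HCT-116 and TALL-104, with no call by either.

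**Figure D3:**
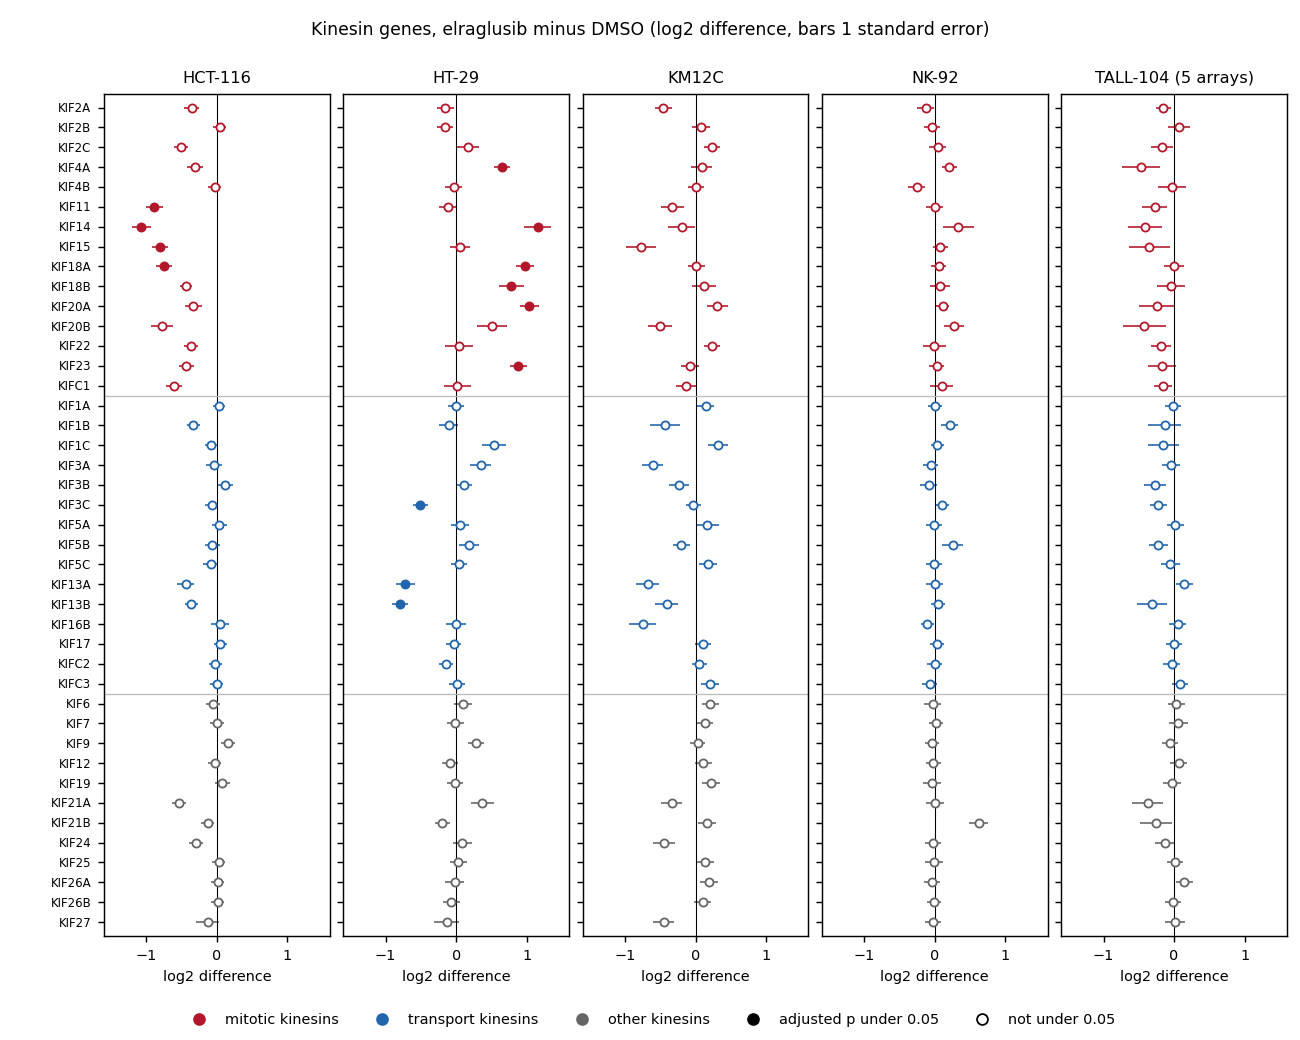
Elraglusib minus DMSO difference in log2 signal for the 42 kinesin genes in each of the 5 lines, grouped by role, with bars of 1 SE and filled points where the limma adjusted p was under 0.05; TALL-104 is drawn with 5 arrays. Filled points are 4 mitotic genes below 0 in HCT-116 and, in HT-29, 6 mitotic genes above 0 and 3 transport genes below 0.

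The responses of the 3 colorectal lines were then compared with each other, 3 pairs in all, in a fit over the 30 arrays. KIF18A and KIF14 had a higher response in HT-29 than in HCT-116. For KIF18A the difference between responses was 1.73 (SE 0.40, adjusted p = 0.00920) and for KIF14 it was 2.22 (SE 0.62, adjusted p = 0.0398). These are 2 of the 42 kinesin genes, in a comparison where 4.8% of the named genes were called. KIF15 (0.86, adjusted p = 0.110) and KIF20B (1.29, adjusted p = 0.111) followed without passing.

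With 29 arrays, without TALL-104 DMSO replicate 2, 11 kinesin genes were called in HT-29 against HCT-116, where 8.48% of the named genes were, and a fit over the 18 colorectal arrays alone called the same 11, where 7.63% were. These fits were chosen after the data were seen. The mitotic kinesins KIF2C, KIF4A, KIF11, KIF14, KIF18A, KIF18B, KIF20A, KIF20B and KIF23 and the cortical kinesin KIF21A were higher in HT-29 and KIF3C was lower. KIF23 had a difference of 1.31, KIF20A one of 1.37, KIF4A one of 0.96 and KIF3C one of -0.44. Of the 15 mitotic kinesins 11 had a negative difference in HCT-116 and a positive one in HT-29, which 5 of 15 transport kinesins and 17.8% of the named genes had. KIF14 and KIF18A were 2 of the 10 named genes called lower in HCT-116 and higher in HT-29.

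HT-29 and KM12C differed in KIF3A. Its signal in HT-29 was 8.77, 8.83 and 9.21 with elraglusib, against 8.45, 8.72 and 8.59 with DMSO, while in KM12C it was lower with elraglusib on every array. The response of HT-29 minus that of KM12C was 0.96 (SE 0.17, adjusted p = 0.00283), 1 called kinesin gene where 2.65% of the named genes were called. KIF16B (0.75, adjusted p = 0.0573) came next, then KIF15 (0.83) and KIF18A (0.96, adjusted p = 0.293). With 29 arrays 6 kinesin genes were called, where 5.97% of the named genes were. KIF14 (1.35), KIF18A (0.96), KIF23 (0.96), KIF3A and KIF16B (0.75) had a higher response in HT-29 and KIF3C (-0.48) a lower one. The 18 colorectal arrays alone, where 4.91% of the named genes were called, gave KIF20A (0.72) in place of KIF16B.

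KM12C against HCT-116 gave no called kinesin gene with limma over 30 arrays, where 1.36% of the named genes were called. At an unadjusted p under 0.05 there were 3 of 42, beside 11.8% of the named genes. KIF16B had the smallest p (-0.79, adjusted p = 0.0704), followed by KIF3A (-0.56, adjusted p = 0.170), KIF22 (0.60, adjusted p = 0.442) and KIF11 (0.56). With 29 arrays, where 3.46% of the named genes were called, KIF2C (0.74) and KIF18A (0.76) had a higher response in KM12C and KIF16B (-0.79) a lower one. The 18 colorectal arrays alone, where 2.56% were called, gave KIF2C and KIF18A. The median difference between responses over the mitotic kinesins was 0.47 for KM12C against HCT-116, 0.86 for HT-29 against HCT-116 and 0.56 for HT-29 against KM12C.

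Promoter sequence was read for 34 of the 42 kinesin genes, all 15 mitotic ones among them, from RefSeq on build GRCh38.p14. The window took 250 bases before and 50 after the start of transcription. No window was matched for KIF5A, KIF13B, KIFC2, KIFC3, KIF19, KIF21B, KIF26B and KIF27. Of these, the transport kinesin KIF13B was called in HT-29. Late cell cycle promoters are known for the cell cycle gene homology region, spelled TTTGAA, which reads TTCAAA on the other strand, to which DREAM and B-MYB complexes bind, and for CCAAT boxes, which read as ATTGG on the other strand, to which NF-Y binds. Both strands were searched, and the motifs share no letters that would make one contain the other. The stretch from 80 bases before to 20 after the start is printed for the mitotic kinesins called in HCT-116 or HT-29 and, for contrast, for the called transport kinesins KIF13A and KIF3C, with both motifs in capitals on the printed strand.
KIF11: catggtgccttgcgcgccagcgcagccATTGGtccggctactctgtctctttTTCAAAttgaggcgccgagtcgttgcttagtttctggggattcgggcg
KIF14: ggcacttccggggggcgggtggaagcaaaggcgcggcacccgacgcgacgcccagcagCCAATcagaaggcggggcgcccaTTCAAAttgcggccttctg
KIF15: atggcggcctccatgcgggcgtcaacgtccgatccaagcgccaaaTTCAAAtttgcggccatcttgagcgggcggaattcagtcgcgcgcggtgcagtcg
KIF18A: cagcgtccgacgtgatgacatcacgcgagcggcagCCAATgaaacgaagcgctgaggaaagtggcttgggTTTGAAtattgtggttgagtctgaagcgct
KIF18B: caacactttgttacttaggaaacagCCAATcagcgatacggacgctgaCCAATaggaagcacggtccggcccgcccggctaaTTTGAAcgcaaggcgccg
KIF20A: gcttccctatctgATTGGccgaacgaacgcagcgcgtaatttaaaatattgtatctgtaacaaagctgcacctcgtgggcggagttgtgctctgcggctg
KIF23: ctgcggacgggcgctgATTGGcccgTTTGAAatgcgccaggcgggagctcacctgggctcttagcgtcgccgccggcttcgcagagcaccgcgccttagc
KIF4A: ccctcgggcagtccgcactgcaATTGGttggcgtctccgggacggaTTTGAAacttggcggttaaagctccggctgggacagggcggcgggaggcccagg
KIF13A: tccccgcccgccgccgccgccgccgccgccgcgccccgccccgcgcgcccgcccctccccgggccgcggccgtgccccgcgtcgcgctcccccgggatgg
KIF3C: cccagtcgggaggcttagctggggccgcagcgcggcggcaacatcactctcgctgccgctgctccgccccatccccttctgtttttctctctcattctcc
These windows lie at chr10:92593050-92593149 (plus strand) for KIF11, chr1:200620732-200620831 (minus) for KIF14, chr3:44761714-44761813 (plus) for KIF15, chr11:28108137-28108236 (minus) for KIF18A and chr17:44947754-44947853 (minus) for KIF18B. Those of KIF20A, KIF23 and KIF4A lie at chr5:138179032-138179131, chr15:69414269-69414368 and chrX:70290024-70290123, all on the plus strand. The windows of KIF13A and KIF3C lie at chr6:17987616-17987715 and chr2:25982478-25982577, both on the minus strand.

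TTTGAA stood in the 300-base window of 10 of 15 mitotic kinesins, 1 of 11 transport kinesins (KIF5B) and 0 of 8 other kinesins, against 18.2% of all 27305 genes with a window. CCAAT stood in 11 of 15 mitotic kinesins, 4 of 11 transport kinesins and 3 of 8 others, against 39.7% of all genes. Between positions -70 and 20 relative to the start, a span chosen after the positions were seen, TTTGAA was in 9 of 15 mitotic kinesins and in 5.46% of all genes. KIF20A, which rose in HT-29, had CCAAT but no TTTGAA, and KIF2A, KIF2B and KIF2C had neither. The one-letter variant TTCGAA was found in KIF22 and KIF24. A match is a description of the letters, not a bound site or a cause, and these promoters carry no measurement in this series.

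**Figure D4:**
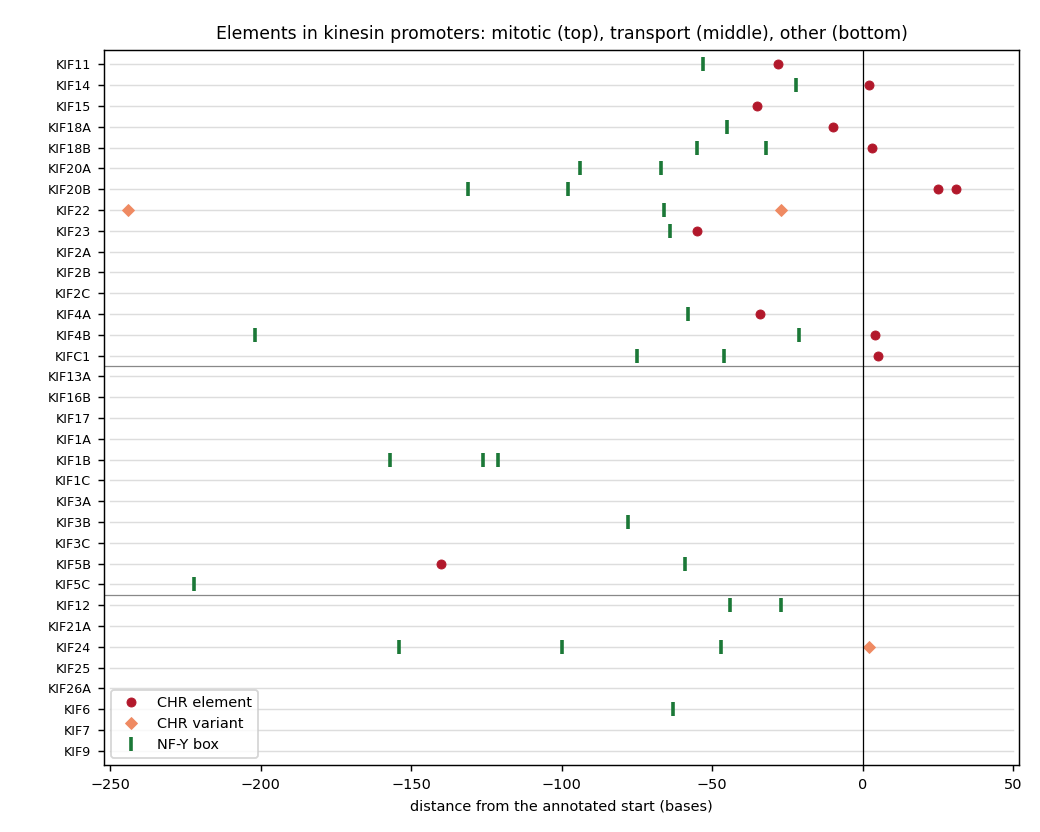
Position of TTTGAA (circles), its variant TTCGAA (diamonds) and CCAAT (bars) in the promoter windows of 34 kinesin genes, with the distance from the start of transcription in bases on the horizontal axis and mitotic, transport and other kinesins from top to bottom. Of the mitotic kinesins 10 of 15 have TTTGAA in the whole window. In 9 of 15 it lies between positions -70 and 20, a span chosen after the positions were seen.

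The proteins that work with kinesins were followed through lists chosen by role. Of 23 measured spindle partners, 9 fell and none rose in HCT-116, where 0.677% of the named genes fell, and the list's median was -0.54, against 0.02 over all named genes. In HT-29, 7 rose and 3 fell, where 4.06% of the named genes rose and 5.79% fell, with a median of 0.48 against -0.02. In KM12C 1 rose and 1 fell, where 1.89% were called, with a median of 0.09 against 0.08. In HCT-116 the smallest p-values belonged to AURKB, the kinase of the chromosomal passenger complex (-0.99, adjusted p = 0.00840), to ASPM of the spindle poles (-1.37, adjusted p = 0.0148) and to CKAP5, a microtubule polymerase (-0.86, adjusted p = 0.0195). AURKB is carried to the central spindle by KIF20A.

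In HT-29 the spindle protein NUSAP1 fell by 2.46 (adjusted p = 3.46e-05), while AURKA, the kinase of the spindle poles, rose by 1.21 (adjusted p = 0.000699) and HMMR by 0.95 (adjusted p = 0.00160). In KM12C NUSAP1 fell by 1.59 (adjusted p = 0.00246) and the kinetochore protein KNSTRN rose by 0.85 (adjusted p = 0.0146). AURKA had a difference of 0.65 there (adjusted p = 0.0502).

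Of 12 measured kinesin light chains and adaptors, KIFAP3, the non-motor subunit that joins KIF3A and KIF3B, fell by 1.95 in HT-29 (adjusted p = 0.000188) and by 1.11 in KM12C (adjusted p = 0.00810). KLC1, a light chain of the KIF5 motors, rose by 0.70 in HT-29 (adjusted p = 0.0178). None of this list was called in HCT-116. In HT-29 4.06% of the named genes rose and 5.79% fell, and in KM12C 1.89% were called. KIF3A itself was not called in HT-29 or in KM12C with all arrays.

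Of 18 measured genes of cytoplasmic dynein and dynactin, which drive transport the opposite way along microtubules, the dynein heavy chain DYNC1H1 fell by 0.76 in HT-29 (adjusted p = 0.00622) and by 1.31 in KM12C (adjusted p = 0.0146). DYNLL1 rose by 0.46 in HT-29 (adjusted p = 0.0365) and DCTN5 by 0.63 in HCT-116 (adjusted p = 0.0363). No other gene of the list was called in these lines. Of the named genes 4.06% rose and 5.79% fell in HT-29, 1.89% were called in KM12C and 1.09% rose in HCT-116.

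Of 15 proliferation markers none was called in HCT-116 with limma, with a median of -0.36. In HT-29, 3 rose and 8 fell (median -0.75), where 4.06% of the named genes rose and 5.79% fell. Among those that fell were MCM6 of the replication helicase (-1.95) and TOP2A (-2.27), while CCNB1, the mitotic cyclin, rose by 1.19. In KM12C 2 rose and 2 fell, where 1.89% of the named genes were called. TOP2A was at -1.73 there, CCNB1 at 0.94 and CDK1 at -0.95. These markers moved beside the mitotic kinesins of HT-29 in both directions, and their part in the kinesin result was not tested.

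Among 16 regulators of mitotic transcription, CDKN1A, the cell cycle inhibitor p21, rose by 1.61 in HCT-116 (adjusted p = 0.00257). It was the only one called there, where 1.09% of the named genes rose and 0.677% fell. In HT-29, 3 rose and 6 fell, where 4.06% of the named genes rose and 5.79% fell. E2F1 had -0.97 in HT-29, RBL1, a pocket protein of DREAM, -0.95 and RBBP4, another DREAM subunit, -0.69. CDKN1A rose there too, by 0.65 (adjusted p = 0.0141), as did E2F5 by 0.72 (adjusted p = 0.0147), both named after their values were seen. In KM12C RBL1 fell by 1.35 (adjusted p = 0.0146), where 1.89% of the named genes were called. No gene of these 5 lists was called in NK-92 or TALL-104.

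With DMSO alone the kinesin genes differed widely between the 5 lines. Leaving out TALL-104 DMSO replicate 2, the range of the 5 line means had a median of 2.29 over the mitotic kinesins and 2.12 over the transport kinesins, against 0.43 over the other kinesins and 0.77 over all named genes. A range above 2 was found in 9 of 15 mitotic kinesins, 8 of 15 transport kinesins and 2 of 12 others, against 19.9% of the named genes. With all 3 TALL-104 arrays the median range was 1.48 over the mitotic kinesins, 2.12 over the transport kinesins, 0.34 over the others and 0.70 over all named genes, and 7 mitotic kinesins had a range above 2, against 17.2% of the named genes. Neighbouring lines in each order below were compared with limma over the 29 arrays, and "differed" means an adjusted p under 0.05, while "did not differ" says only that this was missed. That fit called 34.9% of the named genes between HCT-116 and HT-29, 34.1% between HCT-116 and KM12C and 33.2% between HT-29 and KM12C. Against NK-92 it called 43.9% in HCT-116, 43.9% in HT-29 and 45.7% in KM12C, and against TALL-104 45.6%, 44.4% and 46.7% in the same lines.

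The 5 mitotic kinesins with the widest range, KIF18A, KIF20A, KIF23, KIF4A and KIF20B, were all lowest in TALL-104, with or without replicate 2. KIF18A had a mean of 12.58 in HCT-116, which differed from 11.42 in HT-29, while HT-29, KM12C (11.29) and NK-92 (11.16) did not differ as neighbours and NK-92 differed from TALL-104 (9.39). KIF20A was highest in KM12C (13.04), which did not differ from HCT-116. HT-29 (11.91) and NK-92 (11.66) followed without differing from each other, and TALL-104 (9.86) was apart from them.

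KIF23 averaged 13.73 in HCT-116, 13.55 in HT-29, 13.08 in KM12C, 12.89 in NK-92 and 10.87 in TALL-104, with differences between HT-29 and KM12C and between NK-92 and TALL-104. KIF20B was highest in HT-29 (12.54), which differed from HCT-116 (11.64), and NK-92 (11.03) differed from TALL-104 (9.81). KIF4A averaged 11.88 in HT-29, 11.47 in KM12C, 11.07 in HCT-116 and 10.80 in NK-92, none of which differed from its neighbour, and was apart at 9.10 in TALL-104. KIF22, a chromokinesin that pushes chromosome arms outwards, had the narrower range of 1.09, with NK-92 highest at 10.89 and HT-29 lowest at 9.80.

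The depolymerases KIF2A and KIF2C and the minus-end motor KIFC1 had NK-92 on top, apart from the next line. NK-92 was also highest for KIF18B and KIF22, where it did not differ from the next line, HCT-116. KIF2A averaged 13.62 in NK-92, which differed from 11.61 in TALL-104, with HCT-116 lowest at 10.93. KIFC1 averaged 10.32 in NK-92, which differed from 9.46 in HCT-116, and was lowest in KM12C at 7.83. KIF2C (MCAK), which corrects faulty attachments of chromosomes, averaged 12.59 in NK-92, above KM12C at 12.10, and was lowest in TALL-104 at 10.31.

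Among transport kinesins, KIF1C, KIF16B, KIF13A, KIF3B and KIF1B had the widest ranges. KIF1C, a vesicle motor that also moves integrins, averaged 10.41 in KM12C, 10.36 in HT-29 and 10.15 in HCT-116, which did not differ as neighbours, then 8.92 in TALL-104 and 6.38 in NK-92, each apart from the line before it. KIF16B averaged 8.24 in KM12C, 7.55 in HT-29 and 6.97 in HCT-116, each different from the next, and was low in NK-92 (4.53) and TALL-104 (4.46), which did not differ. KIF13A averaged 8.18 in HT-29, 7.75 in HCT-116 and 7.05 in KM12C, each different from the next, and was low in NK-92 (4.81) and TALL-104 (4.76), which did not differ. KIF1B, a motor of mitochondria and vesicles, averaged 9.30 in KM12C, 8.85 in HT-29 and 8.56 in HCT-116, which did not differ as neighbours, against 6.97 in TALL-104 and 6.78 in NK-92, which did not differ either.

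KIF5B, the widely used heavy chain of conventional kinesin, differed between all neighbours, with means of 15.35 in HCT-116, 14.95 in HT-29, 14.47 in KM12C, 13.79 in TALL-104 and 13.11 in NK-92. KIF5A and KIF5C, its neuronal relatives, stood out in HCT-116, at 6.37 and 6.00, and were low in the other 4 lines. KIF3B averaged 11.55 in HT-29, 10.73 in KM12C, 10.56 in HCT-116, 9.26 in NK-92 and 8.79 in TALL-104. KM12C and HCT-116 were the only neighbours in KIF3B that did not differ.

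Among other kinesins, KIF21B and KIF21A, a pair of relatives that restrain microtubule growth, did not share an order of lines. KIF21B averaged 8.03 in NK-92 and 7.56 in TALL-104, which differed, against 5.35, 5.16 and 4.83 in HT-29, HCT-116 and KM12C. KIF21A averaged 10.44 in HT-29, 9.87 in HCT-116 and 9.31 in KM12C, against 9.15 in NK-92 and 7.53 in TALL-104. KIF27 had a range of 1.34, KIF24, a depolymerase of centrioles, one of 1.23, and KIF26B one of 0.54.

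**Figure D5:**
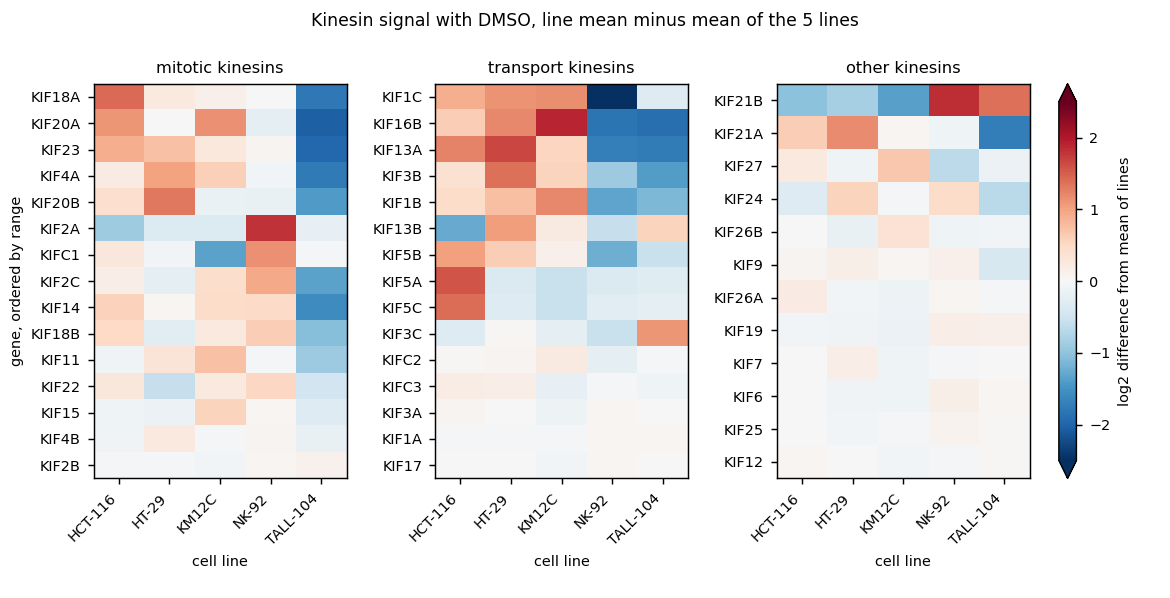
Mean log2 signal with DMSO in each of the 5 lines minus the mean of the 5 lines, for the 42 kinesin genes grouped by role and ordered by range, as colours from -2.5 to 2.5; TALL-104 is the mean of replicates 1 and 3. The TALL-104 column is lowest for KIF18A, KIF20A, KIF23, KIF4A and KIF20B, and both cytotoxic columns are low for KIF13A and KIF16B and high for KIF21B.

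The colorectal lines as a class were then set against the cytotoxic lines with DMSO. Arrays of a line are not replicates of a class, so the adjusted p-values measure the spread between arrays of these 5 lines only, and class, culture medium and interleukin-2 cannot be told apart. With 30 arrays 22 of 42 kinesin genes were called, 17 higher and 5 lower in the colorectal lines, in a contrast where 52.7% of the named genes were called. The count of 22 was near that share, which is for both directions together. All 9 called transport kinesins were higher in the colorectal lines, as were 6 of the 8 called mitotic kinesins, while KIF2A and KIFC1 were lower. The median difference was 0.45 over the transport kinesins and 0.16 over the mitotic kinesins, against -0.09 over all named genes.

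KIF16B had the largest difference with DMSO, 3.07 (SE 0.09, adjusted p = 2.06e-19), followed by KIF1C at 3.06 and KIF13A at 2.87. Among mitotic kinesins KIF20A had 1.50, KIF23 1.20 and KIF18A 1.18. Lower in the colorectal lines were KIF21B at -2.91 (SE 0.15, adjusted p = 2.53e-14), KIF2A at -1.61 and KIFC1 at -1.12. Without TALL-104 DMSO replicate 2, 26 kinesin genes were called, where 56.5% of the named genes were, with KIF20A at 1.89, KIF23 at 1.58, KIF18A at 1.49, KIF1C at 2.66 and KIF3C then lower, at -0.45. KIF16B had 3.10 there, KIF13A 2.88, KIF21B -2.67, KIF2A -1.32 and KIFC1 -0.93.

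With line means in place of arrays and without that replicate, 7 of 15 transport kinesins, 5 of 15 mitotic kinesins and 2 of 12 others had all 3 colorectal means above both cytotoxic means, which 13.7% of the named genes had. All 3 means were below in 2 mitotic kinesins, 1 transport kinesin and 4 others, against 33.7% of the named genes. With elraglusib the class contrast called 28 kinesin genes, 23 higher and 5 lower, where 53.5% of the named genes were called, and 29 without TALL-104 DMSO replicate 2, where 56.9% were. KIF16B then had 2.89, KIF1C 2.97, KIF13A 2.19, KIF20A 2.29 and KIF21B -2.91.

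Within the cytotoxic lines the mitotic kinesins that were called were all higher in NK-92 than in TALL-104. With DMSO and all 6 arrays 14 kinesin genes were called, where 23.5% of the named genes were, and without TALL-104 DMSO replicate 2 the count was 22, where 34.6% were. In that second fit 12 of 15 mitotic kinesins were higher in NK-92 and none lower, against 7 higher and none lower with all 6 arrays. These shares of the named genes are for both directions together. The median over the mitotic kinesins was 1.67, against 0.98 with all 6 arrays, and over all named genes it was 0.01 and 0.02. Leaving out TALL-104 DMSO replicate 1 or 3 instead left 3 called kinesin genes. KIF2C was higher by 2.29, KIF14 by 2.06, KIF23 by 2.02 and KIF2A by 2.02 (SE 0.11, adjusted p = 1.30e-13).

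Of the 15 transport kinesins, 4 were lower in NK-92 than in TALL-104 and 1 was higher without the replicate in doubt, with 10 not called and a median of -0.06. With all 6 arrays 4 were lower, none was higher and 11 were not called. The named genes called were 34.6% without the replicate and 23.5% with all 6 arrays, and the transport counts were near these shares. Without the replicate KIF1C had -2.53 (adjusted p = 5.40e-12), KIF3C -1.66, KIF13B -1.14 and KIF5B -0.68, all lower in NK-92, while KIF3B was higher by 0.47. KIF21A (1.63) and KIF24 (1.13) were higher in NK-92.

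Across the arrays of a group the kinesin genes also moved with one another. After each group's mean was taken away, the 13 mitotic kinesins with a mean of at least 6 had a mean pairwise correlation of 0.54 over 29 arrays, the 8 such transport kinesins one of 0.45, and mitotic with transport kinesins one of 0.43. The same mean over 9467 named genes was 0.15. The points share array, culture and extraction, so these are descriptions with no test.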

How the data were processed

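Total RNA was labelled and hybridised to the Human Transcriptome Array 2.0, and the authors deposited a log2 gene-level signal with 2 decimals per probe set and array. The software named for the arrays is the Transcriptome Analysis Console. Neither its version nor its normalization is given in the sources used here. Array medians lay between 4.23 and 4.6, so the values were used as deposited. RNA was isolated in batches of 6 and arrays were run in batches with randomized samples, but which array fell in which batch is not given, so batch was not tested. Replicates were labelled as biological.

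Probe sets were named through the platform annotation: of 67528, 23781 had 1 symbol, 1543 several and 42204 none. Each line was fitted alone (6 arrays, treatment as the only term) with limma 3.58.1 in R 4.3.3, with Benjamini-Hochberg adjustment over all probe sets and calls at 0.05. Differences between responses, classes and lines came from 1 fit over 30 arrays, in which each of the 10 groups had its own mean. All SEs are limma's moderated ones. The alternatives were quantile normalization, leaving out probe sets under the 40th percentile of mean signal (4.16), trended and robust variance, array weights, a replicate block, the methods' paired test, a fold of 1.5 with unadjusted p, a single fit of all arrays, and leaving out each array. Fits over 29 arrays or 18 colorectal arrays were added after the data were seen.

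The members, roles and gene lists were chosen with earlier results of these data known. Called genes were named up to 12 per comparison, or the 4 with the smallest p where fewer than 4 were called, with KIF7 in every line, the 5 widest ranges per role and the 3 smallest p-values per partner list. Genes used as further examples of a pattern (KIF14 on the array in doubt, KIF22, KIFC1, KIF2C, KIF5A, KIF5B and KIF5C among the levels) were chosen after their values were seen. On simulated data with 200 changed probe sets of 67528, a change of 1 log2 unit was recovered in 60% (HCT-116), 53% (HT-29), 54% (KM12C), 57% (NK-92) and 21% (TALL-104) of cases. Promoters came from RefSeq, build GRCh38.p14. The number of arrays limits the precision. Plots used Python matplotlib 3.10.9 and pandas 2.3.3.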

Additional observations from a re-analysis of the deposited data

Results flagged for a closer look

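For 3 kinesin genes differences between lines passed a test of the difference itself, over all 30 arrays with limma. They were 2 of 42 in HT-29 against HCT-116, where 4.8% of the named genes were called. In HT-29 against KM12C they were 1 of 42, where 2.65% were called. Both counts were near the share over all named genes. KIF14 responded to elraglusib with a difference 2.22 higher in HT-29 than in HCT-116 (SE 0.62, adjusted p = 0.0398), higher than DMSO on 3 of 3 HT-29 arrays and lower on 3 of 3 HCT-116 arrays. KIF18A did so by 1.73 (SE 0.40, adjusted p = 0.00920), with the same split of the arrays. When each of the 12 arrays of these lines was left out in turn, KIF14 stayed called in 2 of the 12 fits and KIF18A in all 12. KIF3A had a response 0.96 higher in HT-29 than in KM12C (SE 0.17, adjusted p = 0.00283), where neither line's own difference was called with all arrays, and it stayed called in all 12 fits that left out 1 array of these lines.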

How the results depend on the processing

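Counts of called kinesin genes in HCT-116, 4 as reported, were 14 with quantile normalization, 9 without dim probe sets, 9 with trended and robust variance, 8 with array weights, 9 by the methods' paired test unadjusted and 0 after adjustment, 1 in a fit over all arrays, and 0 to 1 when 1 array was left out. In HT-29, 9 as reported, they were 14 and 0 by the paired test unadjusted and adjusted, 3 over all arrays, and 7 to 8 with 1 array left out. In KM12C, 0 as reported, they were 11 with array weights, 10 by the paired test unadjusted, 4 at the fold of 1.5, 4 over all 30 arrays, 6 over 29, and 0 to 9 with 1 array left out, the 9 being without DMSO replicate 3. In NK-92 the paired test unadjusted gave 4 and the fold of 1.5 gave 1, and in TALL-104 the paired test unadjusted gave 1, with 0 to 0 in both lines on leaving out 1 array. Shares of all named genes called are given in this section for few settings, and without them a change in count says nothing about kinesins in particular. In KM12C, for example, the fit without DMSO replicate 3 called 10.8% of all probe sets.

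Between responses, HT-29 against HCT-116 (2 as reported) gave 11 with array weights, 11 over 29 and 11 over 18 arrays, and 1 to 2 with 1 array left out, KIF14 being the call lost. KM12C against HCT-116 (0) gave 1 with quantile normalization, 1 without dim probe sets, 6 with weights, 3 over 29 arrays, 2 over 18 and 0 to 2 with 1 left out. HT-29 against KM12C (1) gave 2, 2, 12, 6, 6 and 1 to 2 under the same settings. Over 29 arrays 8.48%, 3.46% and 5.97% of the named genes were called in these 3 pairs, in the same order. Over 18 arrays 7.63%, 2.56% and 4.91% were. The class contrast ranged over 21 to 26 with DMSO and 26 to 28 with elraglusib when 1 array was left out. NK-92 against TALL-104 (14) gave 22 with weights and 3 to 22 with 1 left out, 22 without TALL-104 DMSO replicate 2 and 3 without replicate 1 or 3. Of 62 called results for named kinesin genes none changed sign under these settings. Of 29 not called 6 did, all near 0, those of KIF7 in 4 lines and of KIF24 in both class contrasts, which with DMSO ran over -0.13 to 0.21 and was called with array weights. The causes of the moves were not tested.

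With replicate number as a block, counts were 0 in HCT-116, 10 in HT-29, 1 in KM12C, 0 in NK-92 and TALL-104, and 1 for HT-29 against HCT-116. In no line did same-numbered arrays correlate above 0.1 in all 3 numbers (correlations of -0.48 to 0.21). The correlations in HT-29 were all positive, at 0.212, 0.032 and 0.141. With 3 numbers per line this check cannot exclude a shared culture or day. The labels give only a replicate number, and the main fits did not use a pairing.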
